A study of Mus musculus with 2 samples.

Results

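The 10 genes described here take part in how a deoxycytidine analog such as decitabine (DAC) enters a cell, is activated or inactivated there, and meets the cell's own deoxynucleotides. They were chosen by role from a fixed list of symbols (Slc29a1, Slc29a2, Dck, Cda, Dctd, Samhd1, Rrm1, Rrm2, Dut and Tyms), and all 10 were found among the 24223 genes counted. The data are RNA-seq counts from CT26, a mouse colon carcinoma cell line of BALB/c origin. The DAC group is a single library of CT26 cells that received 1 μM DAC in 3 doses at intervals of 24 h and then grew for 24 h without the drug. The control group is a single library of CT26 cells handled in parallel without DAC. With 1 library a group there is no replicate check, so no p-value is given, and every interval below covers counting error only.

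Decitabine is a prodrug. Nucleoside transporters of the plasma membrane carry it into the cell, deoxycytidine kinase adds its first phosphate, and further kinases make the triphosphate that is built into DNA in place of deoxycytidine triphosphate, where it traps DNA methyltransferases. Deaminases convert the nucleoside or its monophosphate to uridine forms that do not act on these enzymes, and the hydrolase SAMHD1 can remove the triphosphate. The natural deoxynucleotides with which the drug competes are made by ribonucleotide reductase, and dUTPase and thymidylate synthase turn the deoxyuridine branch into thymidylate.

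Depth was similar, at 35163420 DAC and 34221886 control counts. Levels are given as CPM, the counts per 1000000 after edgeR's trimmed mean of M values (TMM; factors 1.07 for DAC and 0.936 for control), so that 1 CPM is worth 37.6 DAC or 32.0 control counts. A gene was measured when it reached 1 CPM in either library (13545 genes, and all 10 of this set), and it was called higher or lower when DAC and control differed by 2-fold or more. The call also needs a 95% interval from the Clopper-Pearson method, given in parentheses after each ratio, that stays on that side of 1. Epithelial markers, which a colon carcinoma label would lead one to look for, were sparse in the control library. Of 9 epithelial and colon markers 7 were in the count tables. In the control library 2 reached 1 CPM, and in the DAC library 4. Their summed level was 75.3 control and 257 DAC CPM, with Cdh1 (E-cadherin) at 0 and 9 counts. All 4 that were measured had intervals above 1. Krt8 (5 control and 4445 DAC counts), Krt19 and Krt20 were called higher, and Krt18 had a ratio of 1.70. The part of these markers in the results was not tested. All 5 mesenchymal markers reached 1 CPM in both libraries, with a summed level of 8011 control and 3378 DAC CPM. The lower sum is that of Fn1 (6577 and 1742 CPM), while the interval of the ratio lay above 1 for Vim, Sparc and Col3a1 and included 1 for Col1a1. Of 6 blood and endothelial markers, Ptprc and Pecam1 were in the tables, at 3 and 5 control and 0 and 12 DAC counts.

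On the mouse assembly GRCm38, Slc29a1 lies on chromosome 17 from 45585200 to 45599606 and Slc29a2 on chromosome 19 from 5023860 to 5031972. Dck lies on chromosome 5 from 88764996 to 88783281, and Tyms on the same chromosome from 30058202 to 30073617. Cda lies on chromosome 4 from 138338424 to 138367992 and Dctd on chromosome 8 from 48099092 to 48153233. Dut and Samhd1 share chromosome 2, from 125247190 to 125258608 and from 157097533 to 157135265. Rrm1 lies on chromosome 7 from 102441695 to 102469771 and Rrm2 on chromosome 12 from 24708241 to 24714146. The set is thus spread over 8 chromosomes, and a gene-level count covers all annotated exons of a gene, without showing which transcript was made.

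Cytosines in CpG dinucleotides are where mammalian DNA methyltransferases act, so the CpG content of the promoters is given as context. Promoter methylation was not analysed here. In RefSeq promoter windows of GRCm38.p6, from 250 bases before to 50 bases after a transcription start, the median over 32817 windows was 7 CpG dinucleotides (quartiles 3 and 20). The 8 genes with a single listed start ranged from 9 to 40. Rrm2 had 40, Dut 36, Samhd1 29, Dck 23, Slc29a2 20, Cda 18, and Rrm1 and Tyms 9 each. The genes of deoxynucleotide supply held both ends of that range, and the 4 single-start genes of the other roles lay between, from 18 to 29. These counts cover whole windows, parts of which lie inside the gene as annotated by GENCODE. The Dut window lies wholly inside it. Upstream of both the RefSeq and the GENCODE start, Rrm2 had 33, Dck 17, Cda 11, Samhd1 8, Rrm1 7, Tyms 6 and Slc29a2 4, in stretches of 81 to 250 bases. Slc29a2 is printed here because it was the gene called higher, Dck because it carries out the activating step, and Rrm2 and Tyms because their windows were the richest and, with Rrm1, the poorest in CpG. Each run is the stretch of the window upstream of both the RefSeq and the GENCODE start, printed 5′ to 3′ on the strand of the gene, with CpG dinucleotides in capitals. The Slc29a2 run is chr19:5023756-5023859 on the plus strand, the Dck run chr5:88764763-88764995 on the plus strand, the Rrm2 run chr12:24708004-24708240 on the plus strand and the Tyms run chr5:30073626-30073875 on the minus strand.
Slc29a2: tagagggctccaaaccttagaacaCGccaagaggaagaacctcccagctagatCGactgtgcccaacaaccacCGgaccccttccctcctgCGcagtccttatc
Dck: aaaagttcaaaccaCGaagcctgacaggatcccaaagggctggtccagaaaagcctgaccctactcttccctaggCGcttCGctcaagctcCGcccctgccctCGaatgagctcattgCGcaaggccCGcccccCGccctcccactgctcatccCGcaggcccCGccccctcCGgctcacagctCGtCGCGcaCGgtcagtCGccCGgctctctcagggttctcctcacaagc
Rrm2: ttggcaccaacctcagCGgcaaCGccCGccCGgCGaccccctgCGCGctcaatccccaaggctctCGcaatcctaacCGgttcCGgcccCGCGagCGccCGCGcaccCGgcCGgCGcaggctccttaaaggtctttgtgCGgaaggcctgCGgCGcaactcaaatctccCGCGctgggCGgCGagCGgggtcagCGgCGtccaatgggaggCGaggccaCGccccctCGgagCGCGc
Tyms: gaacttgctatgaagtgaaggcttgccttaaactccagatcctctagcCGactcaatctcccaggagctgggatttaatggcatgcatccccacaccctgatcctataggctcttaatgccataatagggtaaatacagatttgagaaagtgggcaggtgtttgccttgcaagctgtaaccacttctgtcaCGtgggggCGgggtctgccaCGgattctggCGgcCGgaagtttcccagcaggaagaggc
In these printed runs there are 4, 17, 33 and 6 CpG dinucleotides in 104, 233, 237 and 250 bases. The 19 windows of the 10 genes, 8 of them of Slc29a1, were also searched on both strands for short motifs. None held the E2F words TTTCCCGC, TTTCGCGC, TTTGCCGC or TTTGGCGC, which 2.26% of all windows hold. The CCAAT box (CCAAT, in 37.4% of all windows) was found in 5 windows, of Slc29a1, Dctd, Rrm1 and Rrm2. The GC box (GGGCGG, in 35.6%) was found in 14. The CHR word TTTGAA, in 17.9% of all windows, was found in 3. The GC box and the E2F words can overlap each other, and a match is a description of the letters only.

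Both nucleoside transporter genes had higher values in the DAC library, Slc29a2 by more than 2-fold. Slc29a2 encodes ENT2, an equilibrative transporter that moves nucleosides along their gradient. It had 169 control and 480 DAC counts, or 5.28 and 12.8 CPM, a ratio of 2.42 (2.03 to 2.90). It was the single gene of the 10 called higher, and 10.8% of the 13545 measured genes were called higher, so this count is close to the share over all genes. Slc29a1, which encodes ENT1, the main equilibrative transporter of many cells, had 1957 and 2888 counts, or 61.1 and 76.9 CPM, a ratio of 1.26 (1.19 to 1.33). Slc29a2 thus stood farther above its control value, while Slc29a1 kept the higher level in both libraries. When log2 ratios were centred on bins of GC content of the longest protein-coding transcript, an alternative chosen after seeing the data, the Slc29a2 ratio was 1.98 (1.66 to 2.37) and no longer passed 2-fold. In bulk RNA, a change in the share of cells of a kind and a change in RNA per cell cannot be told apart.

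Dck, deoxycytidine kinase, had a higher value in the DAC library, below 2-fold. It had 1150 control and 1944 DAC counts, or 35.9 and 51.7 CPM, a ratio of 1.44 (1.34 to 1.55). Across all measured genes this ratio stood at percentile 78.6, and 39.3% of genes lay at least as far from 1 in either direction.

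The genes that inactivate the drug had values on the same side as Dck. Cda, cytidine deaminase, which deaminates the nucleoside, was the most weakly counted with Slc29a2, at 186 and 263 counts or 5.81 and 7.0 CPM. Its ratio of 1.21 had an interval (0.995 to 1.46) that includes 1, so with TMM scaling the difference did not pass counting error. Whether it does depends on the scaling, as given below. Dctd, deoxycytidylate deaminase, which deaminates the monophosphate, had 826 and 1386 counts, or 25.8 and 36.9 CPM, a ratio of 1.43 (1.31 to 1.56). Samhd1, a hydrolase of deoxynucleoside triphosphates that also counts among the antiviral restriction factors, had 3496 and 5819 counts, or 109 and 155 CPM, a ratio of 1.42 (1.36 to 1.48). Dck, Dctd and Samhd1 thus had ratios from 1.42 to 1.44, with intervals that overlap.

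The genes of deoxynucleotide supply all had lower values in the DAC library, none by 2-fold. Dut, the dUTPase that keeps uracil out of DNA and yields the substrate of thymidylate synthase, was the farthest from 1, with 5397 control and 3431 DAC counts, or 169 and 91.3 CPM, a ratio of 0.542 (0.519 to 0.566). Tyms, thymidylate synthase, had 1458 and 1249 counts, or 45.5 and 33.2 CPM, a ratio of 0.730 (0.676 to 0.788). Rrm2, the small subunit of ribonucleotide reductase that carries its radical, had 7328 and 6536 counts, or 229 and 174 CPM, a ratio of 0.760 (0.735 to 0.786). Rrm1, the large catalytic subunit, had 10122 and 10345 counts, or 316 and 275 CPM, a ratio of 0.871 (0.847 to 0.895). The Rrm1 counts themselves were slightly higher in the DAC library, which was the deeper one. No gene of the set was called lower at 2-fold, a call that 5.29% of measured genes received. At 1.5-fold, Dut was called lower and Slc29a2 higher, where 15.2% and 19.3% of measured genes passed in those directions.

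**Figure D1:**
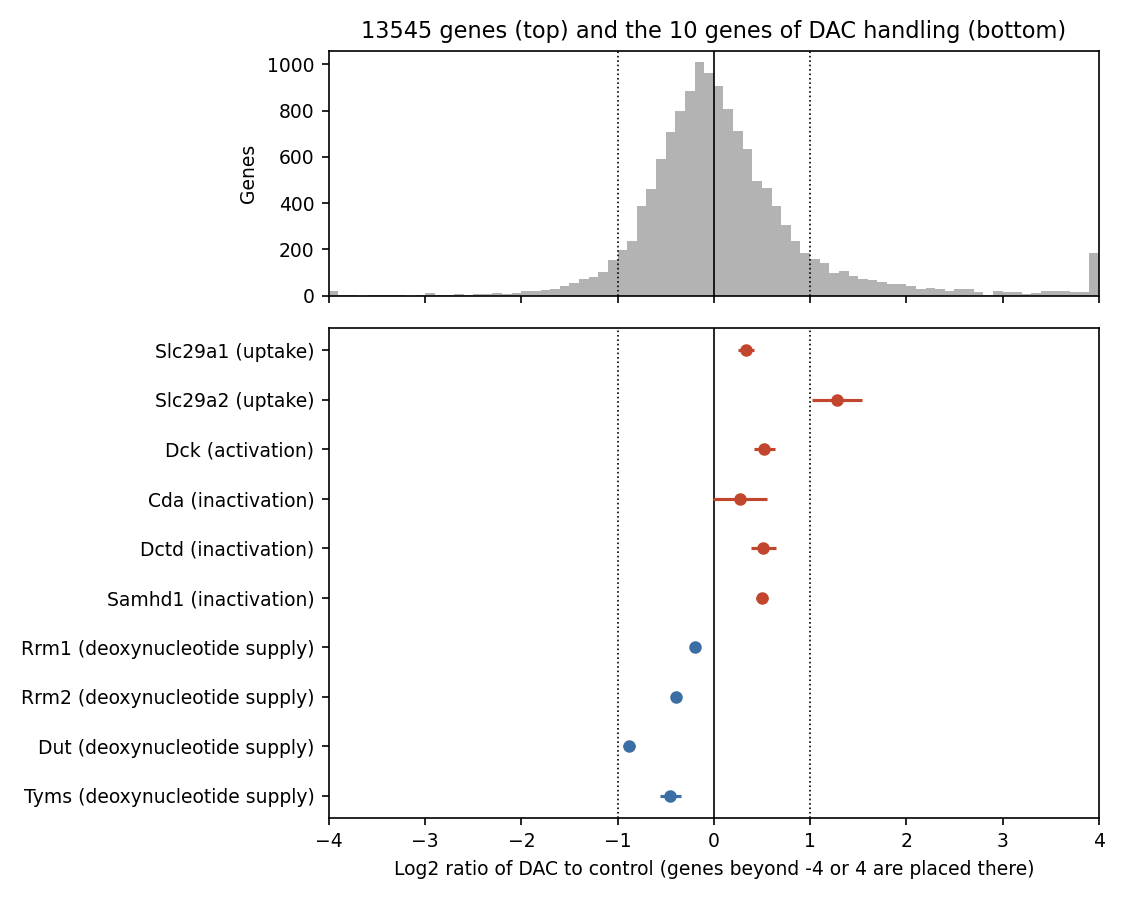
DAC to control log2 ratio on the x axis for the 13545 measured genes, as a histogram with the number of genes on the y axis (top), and for the 10 genes, as points with 95% counting intervals (bottom). Solid lines mark a ratio of 1 and dotted lines 2-fold. The 6 genes of uptake, activation and inactivation lie right of 0 (red) and the 4 of deoxynucleotide supply left of it (blue), and Slc29a2 is the only point beyond a dotted line.

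With TMM scaling, the signs of the log2 ratios thus followed the roles by which the genes had been listed. The sign of Rrm1 did not hold under every scaling, as given below. The 6 genes of uptake, activation and inactivation had a median log2 ratio of 0.51 and the 4 genes of deoxynucleotide supply a median of -0.42, against -0.018 over all measured genes. Counting intervals lay above 1 for 5 of the 10 genes (all of the first 6 but Cda) and below 1 for 4. Among all measured genes the intervals of 37.3% lay above 1 and of 40.3% below 1, since at these counts small differences between 2 libraries already pass counting error. The genes were listed with earlier results of these data known, so the split between the groups is a description of these 2 libraries, and it was not tested.

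The split was compared across 8 scalings of the libraries. With library totals in place of TMM, log2 ratios shift up by 0.19, the median over all genes moves to 0.18, and 1889 genes were called higher and 458 lower (80.5% of calls higher) in place of 1468 and 716 (67.2%). Rrm2, Dut and Tyms had a ratio below 1 with its whole interval under all 8 scalings. Slc29a1, Slc29a2, Dck, Dctd and Samhd1 had a ratio above 1 in the same way. Apart from the GC centrings, every alternative shifts log2 ratios up against TMM, by 0.014 to 0.19. A ratio above 1 by TMM could therefore fall below 1 only after GC centring. Rrm1 did not keep its place. By library totals its ratio was 0.995 (0.968 to 1.02), and after centring on GC content of the longest transcript it was 1.06 (1.03 to 1.09). The longest annotated Rrm1 transcript is a single exon of 5475 bases, and with the GC content of the longest protein-coding transcript (3997 bases in 19 exons), chosen after seeing the data, the ratio was 0.991 (0.965 to 1.02). Cda moved to 1.00 after either GC centring (0.828 to 1.22 with the longest transcript), and its interval lay above 1 under 5 of the 8 scalings, library totals among them (1.14 to 1.67). Dck moved the other way, to 1.75 (1.62 to 1.88) and 1.76 (1.63 to 1.89) after the GC centrings. Dck has the lowest GC content of the set, 42.9% of its longest transcript, against 57.1% in Cda and 58.0% in Slc29a2.

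**Figure D2:**
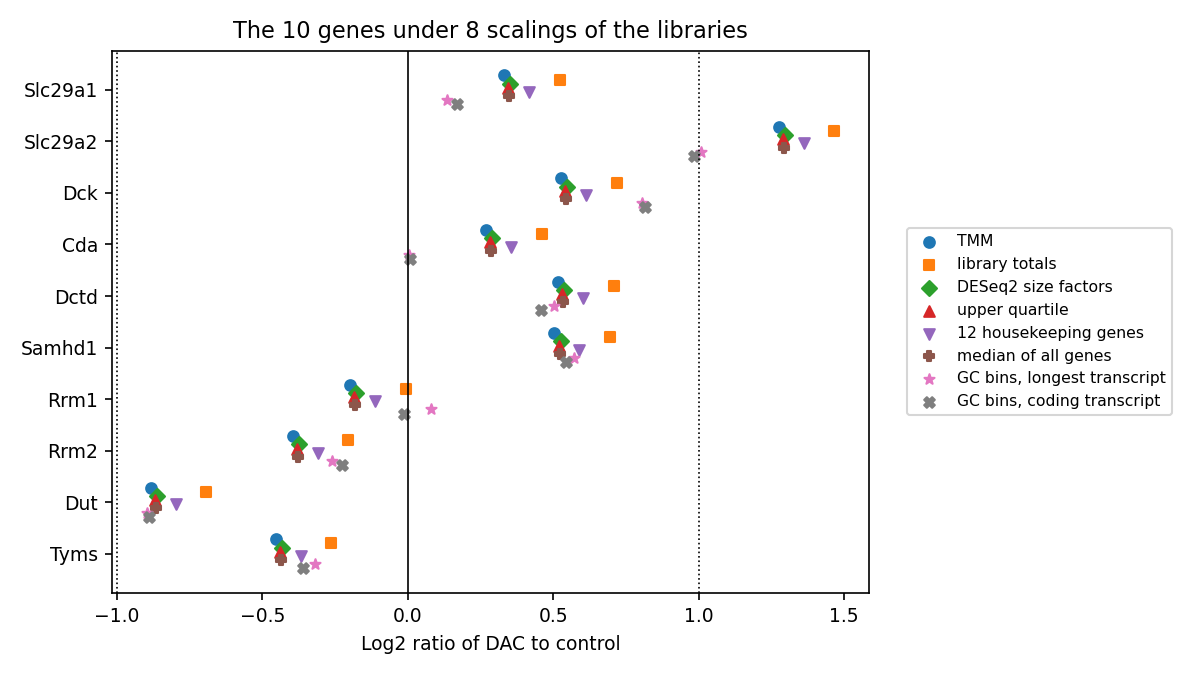
DAC to control log2 ratio on the x axis for each of the 10 genes (y axis) under 8 scalings of the 2 libraries, 1 marker a scaling, offset vertically for view. Equal values lie on the solid line, and dotted lines are drawn at 2-fold. The markers of Rrm1 lie on both sides of the solid line, from -0.20 to 0.079, and those of Slc29a2 lie from 0.99 to 1.47.

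Ratios between pairs of genes do not depend on a factor common to all genes of a library, but they do move with GC centring, which shifts each gene by its own GC content. The DAC to control ratio of Slc29a2 was 1.92 times that of Slc29a1 (exact conditional 95% counting interval 1.60 to 2.33). The Dck ratio was 1.20 times that of Cda, with an interval (0.972 to 1.47) that includes 1. The interval of the quotient with Dctd, from 0.898 to 1.13, and that with Samhd1, from 0.933 to 1.11, also include 1. After GC centring on the longest transcript, an alternative added for the pairs after seeing the data, Dck stood above all 3 inactivating enzymes, at 1.74 times the Cda ratio (1.42 to 2.14), 1.23 times that of Dctd (1.10 to 1.38) and 1.17 times that of Samhd1 (1.08 to 1.28). Whether Dck shifted against these enzymes thus depends on the treatment of GC content. Within ribonucleotide reductase, the Rrm1 ratio was 1.15 times that of Rrm2 (1.10 to 1.20). The Dut ratio was 0.742 times that of Tyms (0.680 to 0.810). Rrm2b, the p53-inducible small subunit that replaces Rrm2 outside S phase, had 1607 and 1064 counts, a DAC to control ratio of 0.564 (0.522 to 0.610), and the Rrm2 ratio was 1.35 times that of Rrm2b (1.24 to 1.47). Without GC centring, the intervals of 4 of the 7 pairs excluded 1, and they also did after either GC centring.

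Levels of different genes were compared as CPM per kilobase of the union of exons. In the control library Rrm2 stood highest at 82.6 CPM per kilobase, followed by Dut at 69.9 and Rrm1 at 28.7. Slc29a1 (15.2), Samhd1 (11.9) and Dck (9.50) came next. Dctd (7.57) and Tyms (7.48) did not differ beyond counting error, with intervals of 7.06 to 8.10 and 7.10 to 7.87, and Cda (5.61) and Slc29a2 (1.75) stood lowest. In the DAC library the order was the same down to Dctd, with Rrm2 at 62.8, Dut at 37.9 and Rrm1 at 25.0, and then Cda (6.76) came before Tyms (5.46) and Slc29a2 (4.23). Dck stood at 1.69 times the level of Cda in the control and 2.02 times in the DAC library. The order depends on the length used, since the union of exons counts every annotated exon. With the longest protein-coding transcript, a length added after seeing the data, Rrm2, Dut and Rrm1 were still the 3 highest in both libraries and Slc29a2 the lowest, but Rrm1 stood at 79.1 and 68.9 CPM per kilobase and passed Dut in the DAC library, and Dctd lay above Dck. With this length Cda did not come before Tyms in the DAC library (8.27 against 10.5). Nor did it with the longest transcript (8.27 against 8.56). The change of order between Cda and Tyms thus holds for the union of exons only.

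**Figure D3:**
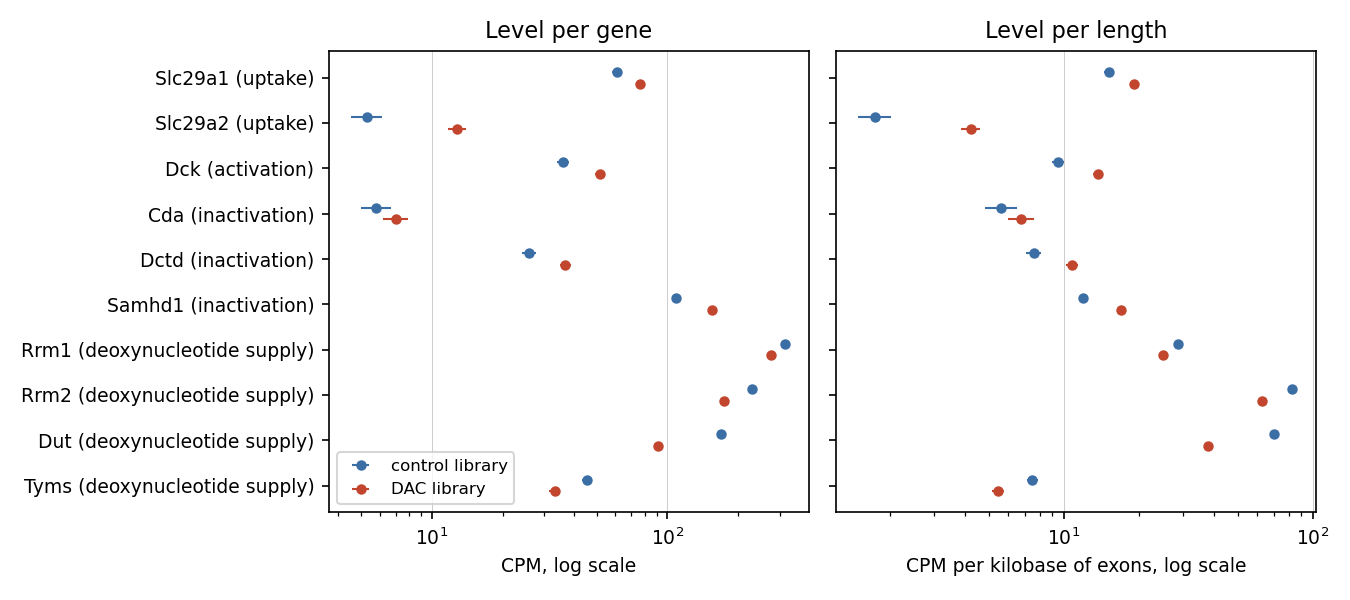
Level of each of the 10 genes (y axis, with its role) in the control (blue) and DAC (red) library, as CPM (left) and as CPM per kilobase of the union of exons (right), both on log scales, with exact Poisson 95% counting intervals. Rrm2 at 82.6 and 62.8 CPM per kilobase lies farthest to the right in both libraries, and Slc29a2 at 1.75 and 4.23 farthest to the left.

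The other nucleoside transporters were measured less well. The concentrative transporter genes Slc28a1 (12 control and 13 DAC counts) and Slc28a2 (0 and 12) and the monoamine and nucleoside transporter gene Slc29a4 (0 and 2) did not reach 1 CPM (39.6% of the 50-base stretches of Slc28a2 also occur in Gm14085), and Slc28a3 was not analysed here. Slc29a3, a transporter of intracellular membranes, had 395 and 582 counts, a ratio of 1.26 (1.10 to 1.43). Of the 6 transporters and exporters measured among the 11 listed, 0 were called higher and 1 lower, with a median log2 ratio of -0.25. The lower one was Abcb1b, a multidrug exporter gene, at 19005 and 10902 counts (ratio 0.489, 0.477 to 0.501), which loses this call by library totals, by housekeeping genes and after GC centring. Of its 50-base stretches, 19.6% occur in other genes, mainly in Abcb1a.

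Among the other kinases, 1 of 18 measured genes was called higher and 0 lower, with a median log2 ratio of -0.05. Cmpk2, a mitochondrial nucleoside monophosphate kinase known as an interferon-induced gene, went from 348 control to 1609 DAC counts (ratio 3.94, 3.51 to 4.44), the farthest from 1 among the measured genes of these lists. Cmpk1, the cytosolic kinase that takes the monophosphate of deoxycytidine analogs to the diphosphate, had 1872 and 2073 counts, a ratio of 0.944 whose interval includes 1. Nme2, a nucleoside diphosphate kinase and the most abundant of the list per length, had 14095 and 13024 counts, with a ratio of 0.787 (0.769 to 0.806). It shares 54.5% of its 50-base stretches with the readthrough gene Gm20390. The thymidine kinase genes Tk1, of the cytosol, and Tk2, of mitochondria, had ratios of 1.14 (1.07 to 1.22) and 0.784 (0.713 to 0.861). Dguok, the mitochondrial deoxyguanosine kinase, had a ratio of 0.982 (0.875 to 1.10).

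Among the nucleotidases, hydrolases, phosphorylases and other deaminases, 1 of 14 measured genes was called higher and 0 lower, with a median log2 ratio of 0.056. Tymp, thymidine phosphorylase, had 70 and 215 counts, a ratio of 2.62 (1.99 to 3.48), but 40.6% of its 50-base stretches occur in the gene Sco2, which had 181 and 806 counts, and after GC centring on the longest transcript Tymp no longer passes 2-fold (log2 ratio 0.98). Nt5c, a cytosolic deoxyribonucleotidase with the highest mean of both libraries per length in this list, had 761 and 1577 counts, a ratio of 1.77 (1.62 to 1.93). In the control library Itpa stood higher, at 34.5 CPM per kilobase against 20.8 for Nt5c.

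Around ribonucleotide reductase, Gsr, glutathione reductase, was the 1 gene of 6 called higher, at 1192 and 3832 counts (ratio 2.74, 2.57 to 2.93). Txn1, the thioredoxin that reduces the enzyme, had 6682 and 10099 counts, a ratio of 1.29 (1.25 to 1.33). Rrm2b, at 0.564, was the lowest ratio of this list.

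In pyrimidine synthesis and the folate cycle that feeds thymidylate synthase, 0 of 15 genes were called higher and 1 lower, with a median log2 ratio of 0.041. Ctps, a CTP synthase, had 5838 and 5961 counts, a ratio of 0.870 (0.839 to 0.902). Shmt2, the mitochondrial serine hydroxymethyltransferase and the most abundant of the list per length, had a ratio of 1.03 (1.01 to 1.05). The gene called lower, Ggh (gamma-glutamyl hydrolase), had 34 and 18 counts (ratio 0.451, 0.240 to 0.822). It loses the call after GC centring, with counts divided by 3, and by library totals or at a minimum of 5 CPM, where it is no longer measured.

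Of 15 purine synthesis and salvage genes, 0 were called higher and 1 lower, with a median log2 ratio of -0.27. Adss, an adenylosuccinate synthase, had 16493 and 8054 counts (ratio 0.416, 0.405 to 0.427). It lies just inside 2-fold after GC centring (log2 ratio -0.996 with the longest transcript). Hprt, a salvage enzyme with the highest mean of both libraries per kilobase of exons in this list, had 5209 and 3507 counts, a ratio of 0.574 (0.550 to 0.599). In the DAC library Aprt stood higher, at 85.1 CPM per kilobase against 72.4 for Hprt. Of 4 uracil and thymine DNA glycosylases, which act on the uracil that dUTPase keeps low, Ung was called higher, at 183 and 445 counts (ratio 2.07, 1.74 to 2.48), and loses the call after GC centring on the coding transcript (log2 ratio 0.79). Smug1, the most abundant of the 4 per length, had a ratio of 0.801 (0.735 to 0.873). Over these 7 lists beside the 10 genes, which hold 95 genes, 78 were measured, of which 4 were called higher and 3 lower, beside 10.8% and 5.29% over all measured genes.

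**Figure D4:**
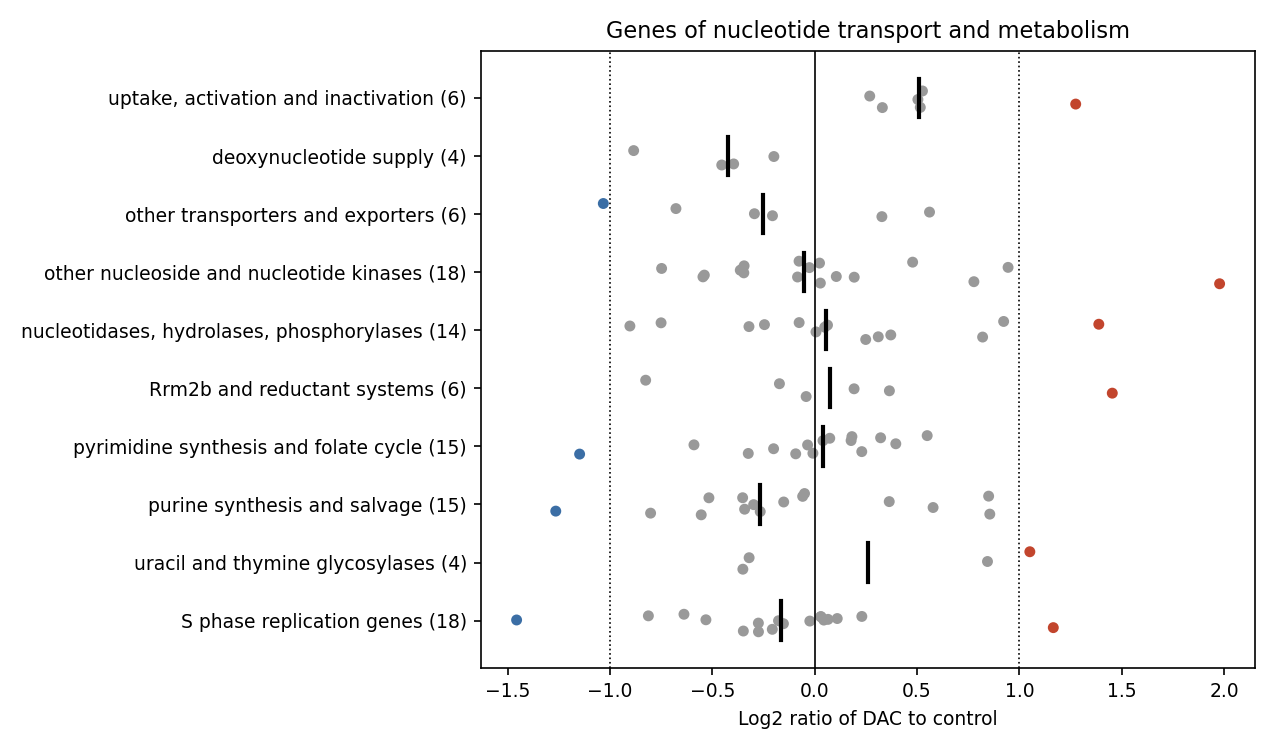
DAC to control log2 ratio on the x axis for the measured genes, by list, with the number measured in parentheses. Red points were called higher, blue points lower and gray points neither, black bars are list medians, dotted lines mark 2-fold, and vertical spread within a list is for view. The medians of the first 2 rows are 0.51 and -0.42, and Cmpk2 lies farthest to the right at 1.98.

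Since Rrm1, Rrm2, Dut and Tyms are made mainly in S phase, 18 genes of DNA replication and of entry into S phase were set beside them. The list, called replication genes below, includes the cyclin genes Ccne1 and Ccne2 and the transcription factor gene E2f1. The median log2 ratio of the 18 was -0.16, with 1 called higher, Ccne1 (cyclin E1, 746 and 1964 counts, ratio 2.24, 2.06 to 2.44), and 1 lower, Fen1 (flap endonuclease, 1791 and 766 counts, ratio 0.364, 0.334 to 0.397). Over all measured genes 10.8% were called higher and 5.29% lower. Counting intervals lay below 1 for 10 of the 18 and above 1 for 3, beside 40.3% and 37.3% of all measured genes. Of the 50-base stretches of Fen1, 81.2% occur in other genes, mainly the antisense gene Gm10143 (37 and 43 counts). Pcna, the sliding clamp and the most abundant of these per length, had 9022 and 10817 counts (ratio 1.02, 0.994 to 1.05). It shares 31.8% of its stretches with Pcna-ps2. The 4 genes of deoxynucleotide supply had log2 ratios of -0.88 to -0.20 and a median of -0.42. The range of the replication genes, from -1.46 to 1.17, is set by Fen1 and Ccne1. These stood at percentiles 2.02 and 91.1 of all measured genes, so most genes lie within that range. Dut lay below every replication gene but Fen1, the next being Mcm2 at -0.81. Whether the share of cells in S phase differed between the cultures was not tested.

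The 10 genes shared little sequence with other genes. Their longest transcripts were cut into all stretches of 50 bases, of which 8.79% in Tyms, 8.21% in Slc29a1, 6.48% in Rrm2, 4.59% in Rrm1 and 0.645% in Samhd1 occur in other annotated transcripts, and 0% in Slc29a2, Dck, Cda, Dctd and Dut. Slc29a1 overlaps the antisense gene Gm17080 by 275 bases of exon, and since the counting is not stated to use strand, reads there cannot be assigned, but Gm17080 had 21 counts in each library. Rrm1 encloses the gene model Gm45399, with 7 and 5 counts and no shared exon bases.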

How the data were processed

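RNA-seq counts of 1 DAC-treated and 1 control CT26 library were used. The authors deposited whole-number counts per Ensembl gene, without normalization. The submitters' processing notes name the build mm10, STAR 2.5.3a and StringTie 1.3.1c, beside Trim Galore, FastQC, DESeq and Cufflinks, and the paper's methods describe poly-A libraries and FPKM values. None of the sources used here says which of these steps gave the count tables.

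Symbols, positions and lengths came from GENCODE mouse M21 (GRCm38, the assembly that mm10 names), which matched 24122 of 24223 identifiers, and promoters from RefSeq (GRCm38.p6). TMM factors came from edgeR 4.0.16 and size factors from DESeq2 1.42.0 under R 4.3.3, and ratios and intervals from scipy 1.17.1 under Python 3.11.15. For a count of 0, the ratio was taken against 3 counts (0.0937 CPM in control, 0.0798 in DAC). The pipeline was tested on simulated data. The genes, the lists and the naming rule were chosen with earlier results of these data known. Named are the 10 genes, up to 4 called genes and the gene of highest mean CPM per kilobase in each list, 12 near relatives (1 of them is not reported here), and genes sharing over 10% of the stretches of one of the 10. Alternatives were other scalings, filters, folds, lengths, intervals from counts divided by 3 and thinning of the deeper library. The GC content and length of the longest protein-coding transcript, and GC centring of the pairs, were added after seeing the data.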

Additional observations from a re-analysis of the deposited data

How the results depend on the processing

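The call of Slc29a2 held under 11 of 13 alternatives. Most of the 11 shift ratios up or change a filter or fold in a way that could not have ended the call. It ended at a 4-fold minimum (0 of the 10 genes higher). It also ended after centring on the GC content of the coding transcript (0 higher, log2 ratio 0.99). Centring on that of the longest transcript left it just past 2-fold (log2 ratio 1.01). At 1.5-fold, 1 of the 10 genes (Dut) was lower against 0. In the pathway lists, 4 higher and 3 lower became 10 and 1 by library totals, 11 and 10 at 1.5-fold and 0 and 0 at 4-fold, with 7 higher without a filter and 1 lower after either GC centring. That 1 is none of the 3 called lower before centring, since Abcb1b, Adss and Ggh all lost the call after either GC centring. Over all genes, 1468 higher and 716 lower became 2672 and 1239 without a filter, 684 and 450 at a minimum of 5 CPM, 2612 and 2059 at 1.5-fold and 579 and 112 at 4-fold, with 458 lower by library totals. These follow from the construction of each filter, fold or shift, except for GC centring, where the cause was not tested. In the order of levels, 5 of the 10 genes in control and 4 in DAC kept their place with the length of the longest transcript, and 6 and 2 with that of the longest protein-coding transcript. Of 1053 log2 ratios of single genes and list medians under alternatives, 781 stayed within the counting interval (for medians, within 1 SD of the list). The other 272 moved beyond it, and 0 called values changed sign. The 781 include values that could not move, since another fold or an interval from divided counts leaves a log2 ratio unchanged. All 7 pairs kept their direction under the alternatives run for them. After GC centring on the longest and the coding transcript, the log2 quotients of Dck with Cda (0.80 and 0.81), Dctd (0.30 and 0.36) and Samhd1 (0.23 and 0.27) came to exclude 0, and the cause was not tested. Rrm1, not called, changed the sign of its log2 ratio to 0.079 after GC centring on the longest transcript.

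No paired analysis was possible because each group is 1 library. For the same reason no replicate was left out, and differences between cultures cannot be told apart from those of treatment. Depth limits Slc29a2 and Cda most, at 169 and 186 control counts.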

Other observations

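Some enzymes of related steps in nucleotide metabolism stood on opposite sides of 1. These genes were picked after their values were seen, and no test was run on them. Adss had 16493 control and 8054 DAC counts, while Adssl1, which encodes the muscle form of the same adenylosuccinate synthase step, had 339 and 717 counts, a log2 ratio of 0.85. Impdh2, the IMP dehydrogenase that opens the guanine branch, had 3520 and 7474 counts, a ratio of 1.81 (1.74 to 1.88), though 73.9% of its 50-base stretches occur in the pseudogene Impdh2-ps. Mbd4, a glycosylase for mismatches at methylated CpG, had 206 and 434 counts, a log2 ratio of 0.84, beside Tdg at -0.35, of whose stretches 66.3% occur in other genes.

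Among genes often used as references, Gapdh had a log2 ratio of -0.0049, but Hprt had -0.80, Pgk1 -0.95, Ppia 0.84 and Gusb 1.25. Of the stretches of Pgk1, Gapdh and Ppia, 68.0%, 27.8% and 20.8% occur in other genes. With such a spread, a ratio of the 10 genes set against 1 such reference would move with the gene chosen.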
